A study of Sorghum bicolor and Setaria italica and Zea mays with 20 samples.

Results

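The regions described here are the very broad DNaseI-hypersensitive sites (DHSs) of *Brachypodium distachyon* leaves. They were selected by width alone, as every DHS of the deposited whole-leaf list that spans 5000 bp or more on chromosomes 1 to 5. The rule found 1820 of 36279 DHSs on these chromosomes, or 5.02% (95% Wilson interval 4.80% to 5.25%), and 0 of the 7 DHSs on unplaced sequences passed it. Throughout, they are set against the 12732 DHSs of 1000 to 2000 bp in the same list, called DHSs of ordinary width below. Width is a property of the measured peaks, and fold enrichment, summit, and footprints come from the same pooled reads. All comparisons are therefore descriptions without a test.

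*B. distachyon* is the C3 species among the 4 grasses of the series, whose other chromatin samples come from *Sorghum bicolor*, *Setaria italica*, and *Zea mays*. Its 2 whole-leaf samples are seedlings of 21 d, grown in short days and then moved to long days, and harvested at Zeitgeber time 20. Each biological replicate pooled leaves of many plants, nuclei came from flash-frozen material, and no genotype or treatment differs between these 2 samples. Leaves of the other species were harvested at 18 d, earlier in the light period. Those plants grew in a separate facility under other conditions, and their nuclei were isolated by another method. The replicates were combined before deposit and the lists hold no read counts, so neither depth nor the spread between replicates can be given. The range over the 5 chromosomes stands beside pooled values, and Wilson intervals cover counting error over listed DHSs only, since neighboring intervals are not independent.

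Most leaf chromatin is wound on nucleosomes, and DNaseI cuts preferentially where they have been displaced, as at promoters and other regulatory sequences of active genes. A protein bound inside such a region shields its contact bases, which leaves a short gap in the cuts known as a digital genomic footprint (DGF). A peak caller joins neighboring enriched positions into 1 region and marks the position of strongest enrichment as its summit. A very broad DHS is thus a stretch over which enrichment was not interrupted long enough to be parted into separate regions. In this list no 2 DHSs on a chromosome lay closer than 198 bp. The sequence and gene models of the authors' assembly (Bdistachyon_283_assembly_v2.0) were not used here, and no bases are shown. Each region is named by its chromosome and its coordinates in that assembly, counted from 1.

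The broad DHSs had a median width of 6060 bp, with quartiles of 5446 and 7088 bp, and the widest measured 15058 bp. Of the 1820, 871 were under 6000 bp, 259 reached 8000 bp, and 72 reached 10000 bp. Counted from 4000 bp there would have been 3364 members, and from 6000 bp 949. Together they covered 11.9 of the 69.9 Mb of DHS on the 5 chromosomes, which is 17.0%, and held 29905 of 191015 DGFs, which is 15.7%. Just inside the limit were DHSs of 5000, 5003, and 5004 bp with 14, 9, and 10 DGFs. Just outside it were DHSs of 4999, 4998, and 4995 bp with 11, 15, and 14 DGFs. Fold enrichment was 2.82, 2.30, and 2.15 for the 3 inside and 1.96, 2.07, and 3.17 for the 3 outside. These 6 regions are too few to show whether either measure changes at 5000 bp.

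The widest DHS lay at chr1:70622698-70637755. Its 31 DGFs came in 8 clusters, counting DGFs as 1 cluster until more than 500 bp pass without one, and its longest stretch without a DGF was 4245 bp. The widest on chromosome 5 was chr5:24308473-24323094, which measured 14622 bp, and held 33 DGFs in 10 clusters. On chromosome 4 a DHS of 14463 bp (chr4:31311473-31325935) held 23 DGFs, with another DHS only 200 bp away. All 3 held long stretches without a DGF between others with DGFs, but their summits differ in place, at 40.1%, 77.2%, and 10.3% of the width. On chromosome 2 the widest measured 14317 bp (chr2:27680426-27694742) and held 23 DGFs in 10 clusters. Its summit lay 1231 bp from its start, and the nearest other DHS was 17198 bp away. On chromosome 3 the widest was chr3:53049309-53062449, of 13141 bp, with 26 DGFs and a summit at 93.3% of the width.

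The remaining 6 of the 10 widest were 5 DHSs of chromosome 1 and 1 of chromosome 4. On chromosome 1 they started at 27590297, 73781411, 49679148, 47774789, and 29319076. Their widths were 14245, 13904, 13729, 13186, and 13165 bp, and they held 27, 30, 41, 33, and 32 DGFs in the same order. The DHS of chromosome 4 (chr4:28606429-28620507) held 29 DGFs over 14079 bp. Over the 10 widest, DGFs per kb ran from 1.59 to 2.99 and fold enrichment from 2.80 to 3.96. Every one of them had at least 1 stretch of 1563 bp or more without a DGF.

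**Figure D1:**
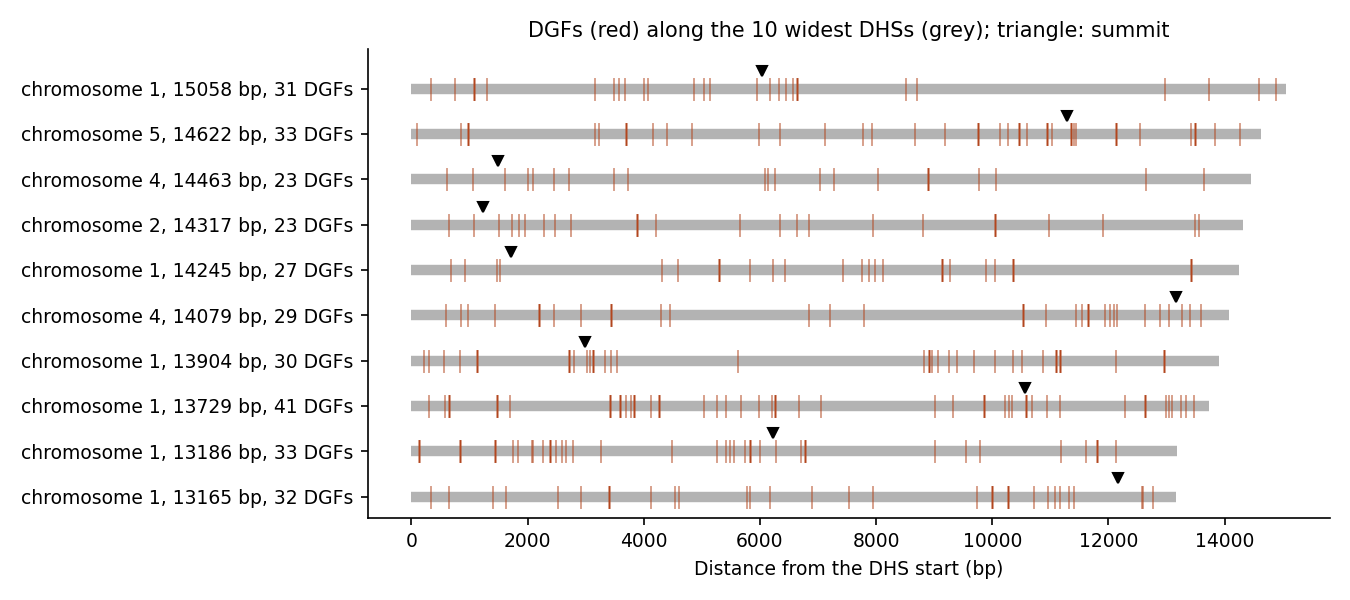
DGFs (red) along the 10 widest DHSs (grey), with distance from the DHS start in bp on the x axis and the summit as a black triangle. Each line is 1 DHS, from 15058 bp at the top to 13165 bp at the bottom. Stretches without a DGF reach 4245 bp in the DHS at the top, and 3 to 7 DGFs lie within 500 bp of each summit.

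Each broad DHS held at least 2 DGFs. The share without any was 0 of 1820, which allows a share of up to 0.165% when 3 counts are taken as the limit and 0.211% by the Wilson interval, against 67 of 12732 DHSs of ordinary width, or 0.526% (0.415% to 0.668%). The median broad DHS held 16 DGFs with quartiles of 13 and 19, against a median of 4 in DHSs of ordinary width. At least 10 DGFs were found in 94.7% of broad DHSs (93.6% to 95.7%) and at least 20 in 22.6% (20.7% to 24.6%), against 0.495% and 0 of 12732 DHSs of ordinary width. A wider region offers more room for DGFs, so these numbers follow in part from the rule.

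Per kilobase, broad DHSs held fewer DGFs, with 2.51 per kb against 2.86 per kb in DHSs of ordinary width. The ratio was 0.88 and ran from 0.87 to 0.89 over the 5 chromosomes, below 1 in 5 of 5. DGFs are sparse beside the ends of any DHS, and narrow DHSs have more of their length there. With 200 bp at each end left out, the values were 2.57 per kb in broad DHSs and 3.18 per kb in those of ordinary width, a ratio of 0.81. Single broad DHSs ranged from 0.343 to 4.83 DGFs per kb with quartiles of 2.11 and 2.92, against quartiles of 2.03 and 3.63 in DHSs of ordinary width. Only 35.8% of broad DHSs (33.7% to 38.1%) exceeded the 2.73 per kb of all DHSs of these chromosomes, against 52.4% of those of ordinary width (51.5% to 53.3%).

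The broad DHS with most DGFs, 49, was also among the densest. It lay at chr2:49935395-49946094, with 4.58 DGFs per kb in only 3 clusters and no free stretch over 736 bp. The next in number held 41 DGFs at chr1:49679148-49692876, which is also among the 10 widest, and 40 at chr1:58586804-58599219. DHSs at chr3:12501221-12513027 and chr3:31558618-31570631 held 40 and 36. These last 4 had 2.99, 3.22, 3.39, and 3.00 DGFs per kb in the same order. Each value was above the upper quartile of broad DHSs, 2.92 per kb. The highest density, 4.83 per kb, belonged to a narrower DHS of 5593 bp at chr2:58396494-58402086 with 27 DGFs. After it came 4.64 per kb at chr2:4706254-4711423, then, behind the DHS with 49 DGFs, 4.41 and 4.26 per kb at chr3:44065411-44070849 and chr3:27633934-27639799. Among these 5 the fold enrichment spread from 2.08 to 3.58.

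At the other extreme, the 5 broad DHSs with the lowest density held 0.343 to 0.610 DGFs per kb, and their fold enrichment, between 3.74 and 5.69, was above the median of broad DHSs in each case. The sparsest lay at chr5:12372547-12378384, with 2 DGFs in 5838 bp, both within 500 bp of its summit, and 5526 bp without any. Another DHS of chromosome 5 (chr5:5926198-5933360) held 3 DGFs in 7163 bp. DHSs at chr2:52312702-52318048 and at chr1:46314652-46319823 held 3 each. The last, at chr4:992966-999524, held 4 DGFs, all within 500 bp of the summit, and the longest free stretch of all 1820 broad DHSs, 6151 bp or 93.8% of its width. These 5 DHSs extended over 5172 to 7163 bp, with their DGFs in 1 or 2 clusters. In 4 of them every DGF lay within 500 bp of the summit, and the exception was the one on chromosome 1, where 1 of 3 did.

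Around the summit the order of the 2 classes was the reverse of that over the whole DHS. Within 500 bp of the summit, broad DHSs held 4.55 DGFs per kb and DHSs of ordinary width 3.50. The ratio was 1.30 and ran from 1.27 to 1.33 over chromosomes, above 1 in 5 of 5. The density in broad DHSs was 5.26 per kb in the first 50 bp from the summit, 6.43 from 50 to 100 bp, and 3.51 from 300 to 500 bp, against 4.07, 5.32, and 2.59 in DHSs of ordinary width. Farther out, from 700 to 1000 bp, it was 2.42 in broad DHSs and 1.78 in those of ordinary width. In broad DHSs it then levelled off, at 2.04 per kb from 1500 to 2000 bp, 2.03 from 2000 to 3000 bp, and 2.09 from 4000 to 5000 bp. At equal distance from the summit, broad DHSs thus held more DGFs per kb in each bin up to 2000 bp. DHSs of ordinary width reach their ends, where DGFs are sparse, within these distances, so this contrast follows in part from the rule. With 200 bp at each end left out, the ratio within 500 bp of the summit was 1.26.

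A DGF lay within 100 bp of the summit in 78.1% of broad DHSs (76.1% to 79.9%), against 69.7% of DHSs of ordinary width (68.9% to 70.5%). In 11 broad DHSs no DGF lay within 500 bp of the summit. Of all DGFs in broad DHSs, 27.0% lay within 500 bp of the summit, against 75.3% in DHSs of ordinary width. DGFs carry a Wellington score that is lower the stronger the footprint. The DGF with the lowest score lay there in 48.3% of broad DHSs (46.0% to 50.6%) and in 82.0% of those of ordinary width (81.4% to 82.7%). A window of 500 bp about the summit takes up a far larger part of a narrow DHS, so both contrasts follow in part from the rule. Per kb of this window, broad DHSs held more DGFs, with 4.55 against 3.50. The median score was −14.4 for DGFs within 500 bp of the summit of broad DHSs and −13.3 for those 2000 bp or farther from it. Over whole DHSs the median score was −13.6 in both classes. The longest DGFs, of 25 bp, made up 33.1% of those in broad DHSs and 36.3% in DHSs of ordinary width, and the median length was 21 bp in both.

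**Figure D2:**
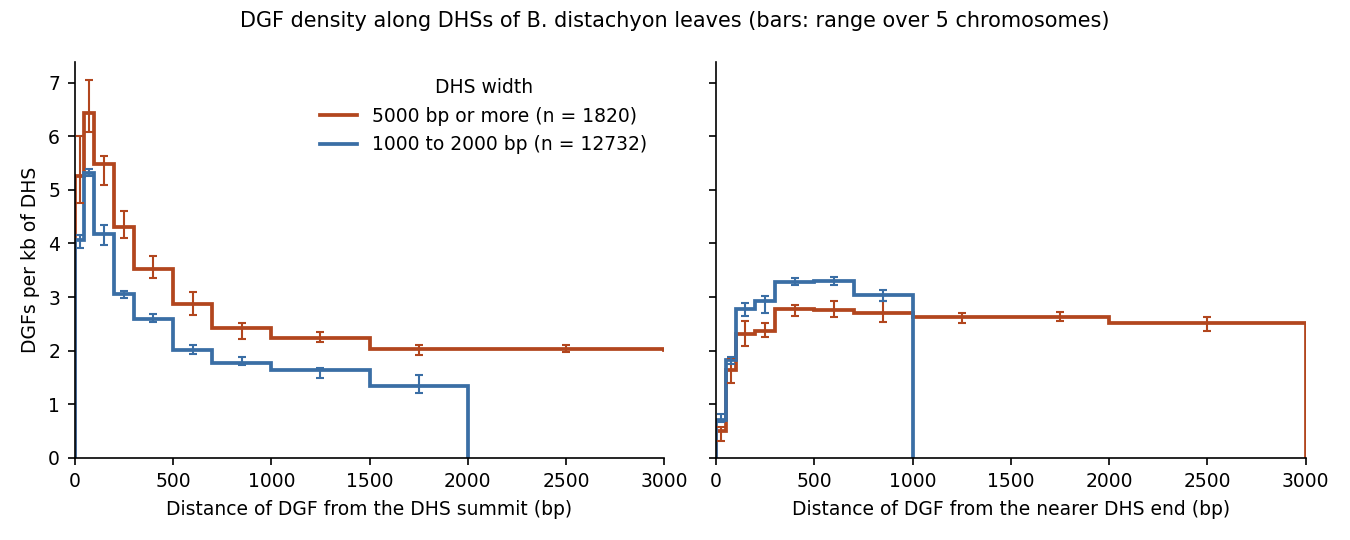
DGFs per kb of DHS on the y axis against distance in bp from the summit (left) and from the nearer DHS end (right), for broad DHSs (red) and DHSs of 1000 to 2000 bp (blue). Steps are pooled values and bars the range over 5 chromosomes. By distance from the summit broad DHSs lie above, with 6.43 against 5.32 per kb from 50 to 100 bp, and by distance from the end they lie below in every bin up to 1000 bp, with 2.78 against 3.29 per kb from 300 to 500 bp.

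Seen from the nearer end, DGFs were few in both classes at first, with 0.495 per kb in the outermost 50 bp of broad DHSs and 0.712 per kb in DHSs of ordinary width. From 300 to 500 bp inward the values were 2.78 per kb in broad DHSs and 3.29 per kb in those of ordinary width. Deeper inside, broad DHSs stayed almost level, at 2.63 per kb from 1000 to 1500 bp and 2.51 from 2000 to 3000 bp. When each DHS was divided into 10 segments of equal width, broad DHSs held between 2.27 per kb, in the first segment, and 2.73 per kb, in the second, with 2.48 and 2.49 in the middle 2. DHSs of ordinary width had 3.40 and 3.50 per kb in the middle 2 segments, and 1.35 and 1.64 in the outermost 2. Pooled over all broad DHSs, no segment of the width was thus much richer in footprints than another. The spacing of DGFs inside single broad DHSs is described next.

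Neighboring DGFs inside broad DHSs stood a median of 223 bp apart from start to start (28085 pairs, quartiles 109 and 443 bp), against 170 bp in DHSs of ordinary width (40060 pairs, quartiles 92 and 298 bp). The ratio of medians was 1.31, from 1.30 to 1.33 over chromosomes. Spacings over 500 bp made up 21.5% of those in broad DHSs and 8.46% of those in DHSs of ordinary width. A narrow DHS cannot hold a wide spacing, so the 2 classes were also compared over DGFs with 500 bp of DHS beyond them. Of these, 76.0% in broad DHSs (75.5% to 76.5%) had the next DGF within 500 bp, against 81.9% in DHSs of ordinary width (81.5% to 82.4%). Within 200 bp the shares were 43.4% in broad DHSs and 47.5% in those of ordinary width, and within 100 bp 21.2% and 22.7%. With equal room, the shares thus differed at 100, 200, and 500 bp. These DGFs were not matched for distance from the summit, near which density was higher in both classes. Of all DGFs, 75.3% in DHSs of ordinary width lay within 500 bp of it, against 27.0% in broad DHSs. What part this has in the difference was not tested.

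The DGFs of broad DHSs fell into 7555 clusters parted by more than 500 bp, with a median of 4 clusters per DHS and a maximum of 10. A cluster held a median of 3 DGFs, 29.5% held a single one, and the largest held 42. These clusters are set by the 500-bp limit alone, and grouping beyond what the density of DGFs gives was not tested. Of broad DHSs, 80.0% (78.1% to 81.8%) had at least 1 stretch of 1000 bp or more without a DGF, and 33.8% (31.7% to 36.1%) had at least 2. There were 2233 such stretches, of which 461 touched an end of the DHS and the others lay between DGFs. In DHSs of ordinary width 7.74% (7.29% to 8.22%) had such a stretch, which would there fill 50% of the region or more. The longest free stretch of a broad DHS had a median of 1343 bp, or 21.1% of its width, against 582 bp, or 41.1%, in DHSs of ordinary width. The difference in this share was −20.0 percentage points, and −12.5 against DHSs of 2000 to 3000 bp. The share fell with width throughout the list, with medians of 58.9% in DHSs under 500 bp and 17.0% in those of 10000 bp or more, so a lower share in broad DHSs follows in part from the rule. In 2.64% of broad DHSs (1.99% to 3.48%) it took more than 50% of the width, against 29.8% of DHSs of ordinary width (29.1% to 30.6%).

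Each DHS was divided into 3 parts of equal width. The summit lay in the middle part in 31.0% of broad DHSs (28.9% to 33.2%), against 45.8% of DHSs of ordinary width (45.0% to 46.7%). Summits spread evenly over a DHS would give 33.3%. The difference of −14.8 percentage points ran from −18.2 to −13.2 over chromosomes, negative in 5 of 5. Over the 10 segments of the width, the summits of broad DHSs varied only between 8.35% and 12.7%, with the highest shares in the second segment (12.7%) and the ninth (11.9%). In DHSs of ordinary width they varied between 2.69% in the last segment and 14.2% in the seventh. The outermost 2 segments together held 20.8% of summits of broad DHSs (19.0% to 22.7%) and 5.51% of those of ordinary width (5.12% to 5.92%).

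In base pairs, the median broad summit lay 1423 bp from the nearer end, against 440 bp in DHSs of ordinary width. No summit of either class lay very close to an end, the smallest distances being 61 bp in broad DHSs and 48 bp in those of ordinary width, and such a margin takes up more of a narrow DHS. Of broad DHSs, 14.1% (12.5% to 15.7%) had their summit within 500 bp of an end, against 62.7% of DHSs of ordinary width (61.8% to 63.5%). Both contrasts follow largely from the rule, since no point of a DHS of 1000 to 2000 bp is more than 1000 bp from an end. The summit was nearer to the start than to the end, in the direction of the coordinates, in 52.6% of broad DHSs (50.3% to 54.9%) and 49.5% of those of ordinary width (48.7% to 50.4%). Against DHSs of 2000 to 3000 bp, of which 35.5% had the summit in the middle part, the difference shrank to −4.55 percentage points.

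**Figure D3:**
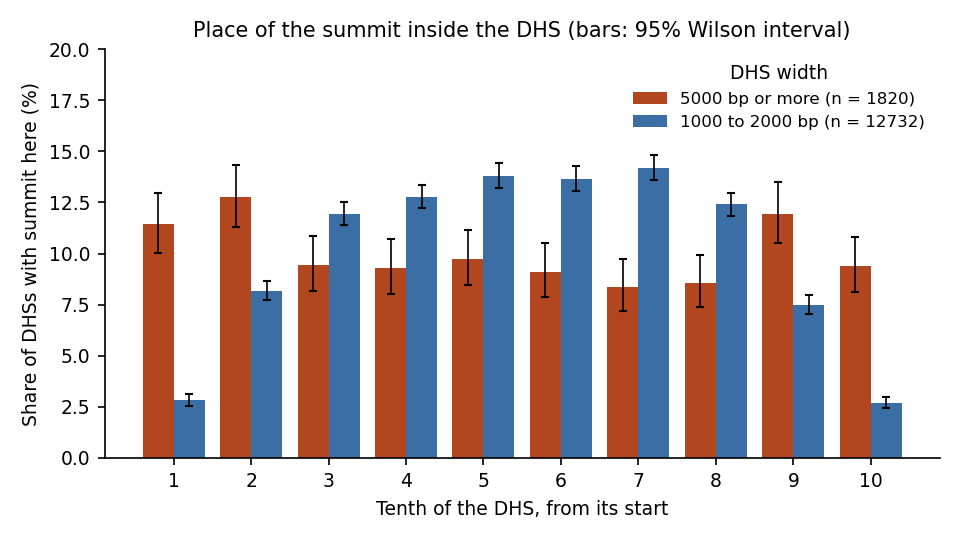
Share of DHSs in percent (y axis) whose summit lies in each of 10 equal segments of the DHS from its start (x axis), for broad DHSs (red) and DHSs of 1000 to 2000 bp (blue), with 95% Wilson intervals. Broad DHSs stay between 8.35% and 12.7% in every segment, whereas DHSs of 1000 to 2000 bp fall to 2.81% and 2.69% in the first and last.

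Fold enrichment at the summit over background, as the authors' peak caller gave it, was higher in broad DHSs. Its median was 2.92 in broad DHSs (quartiles 2.55 and 3.27) and 2.36 in DHSs of ordinary width (quartiles 2.11 and 2.69). The ratio of medians was 1.24 and ran from 1.21 to 1.27 over chromosomes, above 1 in 5 of 5. Of broad DHSs, 86.3% (84.7% to 87.8%) were above the median of the whole list, which was 2.37, and 34.1% (31.9% to 36.3%) were in its top 10%, against 49.2% and 8.75% of DHSs of ordinary width. The very highest values were not among them, since 28 DHSs of the list exceeded the highest broad one. The range of broad DHSs, 1.92 to 5.69, lay within that of DHSs of ordinary width, 1.91 to 9.86. A wider DHS has more positions among which the highest is taken, and what part this has in the difference was not tested.

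The highest fold enrichment of a broad DHS, 5.69, was that of the chromosome 4 region with the 6151-bp free stretch. It was followed by 5.65 at chr1:14088583-14096972 with 17 DGFs, and by 5.65 in the chromosome 5 region with 3 DGFs. Next were 5.30 at chr5:9604177-9612303 with 20 DGFs, and 5.03 at chr4:38458935-38471041 with 22 DGFs. The sparsest broad DHS of all, with 2 DGFs, also had 5.03. The broad DHSs with the highest fold enrichment thus held between 2 and 22 footprints. The lowest values were 1.92 at chr2:5364304-5369699 with 21 DGFs, 1.92 at chr1:34533341-34540856 with 16, and 1.93 at chr4:32540435-32545449 with 12. They were followed by 1.94 at chr3:11484234-11489764 with 12 DGFs and 1.94 at chr2:44620683-44626011 with 17. All 5 of these weak DHSs held at least 12 DGFs, as did most broad DHSs, whose lower quartile was 13 and median 16.

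Over all broad DHSs, those with a higher fold enrichment tended to hold fewer DGFs per kb, with a Spearman's rho of −0.24 and a Pearson's r of −0.26 across 1820 DHSs. These DHSs come from 1 combined list and are not independent replicates. With broad DHSs split at the quartiles of their fold enrichment, whole-DHS density was 2.67, 2.60, 2.51, and 2.31 per kb from the lowest to the highest of the 4 groups. Within 500 bp of the summit it went the other way, at 3.93, 4.39, 4.86, and 5.01 per kb. The median longest free stretch was 1166, 1260, 1376, and 1653 bp in the same order. Width and fold enrichment were only loosely related among them (rho of 0.23), and width and DGFs per kb even less (rho of −0.08).

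The lower density of broad DHSs over their whole length was also seen at like fold enrichment. With the whole list split at its own quartiles of fold enrichment, it was in the lowest group 2.61 per kb in 60 broad DHSs and 2.92 in 3182 of ordinary width, and in the highest group 2.44 in 1138 broad DHSs and 2.71 in 2923. The excess within 500 bp of the summit was smaller at low fold enrichment. It was 3.72 against 3.35 per kb in the lowest group, a ratio of 1.11, and 4.86 against 3.57 in the highest, a ratio of 1.36.

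**Figure D4:**
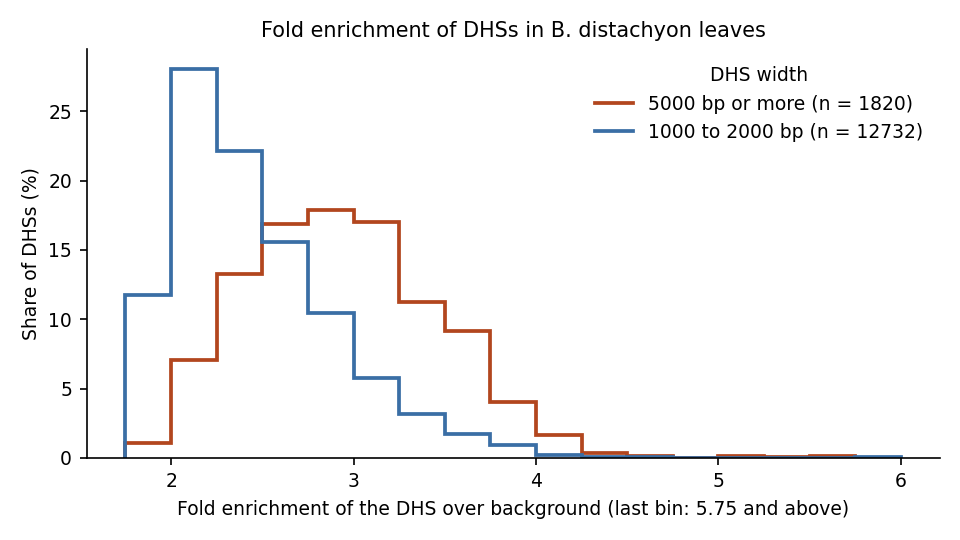
Share of DHSs in percent (y axis) by fold enrichment over background (x axis, the last bin open to higher values) for broad DHSs (red) and DHSs of 1000 to 2000 bp (blue). Broad DHSs are most frequent from 2.75 to 3, with 17.9%, and DHSs of 1000 to 2000 bp from 2 to 2.25, with 28.1%.

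Broad DHSs were found on all 5 chromosomes, and all but 7 of 274 bins of 1 Mb held at least 1. Chromosomes 1, 2, 3, and 5 carried 514, 411, 414, and 196, which is 6.84, 6.92, 6.91, and 6.86 per Mb, and chromosome 4 carried 285 or 5.85 per Mb. As a share of the DHSs of a chromosome they were lowest on chromosome 4, at 4.36% (3.90% to 4.89%), and highest on chromosome 5, at 5.62% (4.90% to 6.43%). The 1-Mb bin with most of them, 15 of its 152 DHSs, lay at chr3:32000001-33000000. Bins with 14 lay at chr2:21000001-22000000 and chr2:45000001-46000000 and at chr4:38000001-39000000. The median bin held 7.

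A smaller share of broad DHSs than of DHSs of ordinary width lay toward the chromosome ends. The centers of 38.0% of broad DHSs (35.8% to 40.3%) were in the outer 40% of the chromosome, against 43.0% of those of ordinary width (42.1% to 43.9%), a difference of −4.97 percentage points that was negative in 5 of 5 chromosomes. Among DHSs at or above the median fold enrichment of the list the difference was −1.85 points, and for the outer 20% of chromosomes it was −2.17 points. In the middle 20% lay 18.5% of broad DHSs (16.8% to 20.4%) and 16.1% of those of ordinary width (15.5% to 16.8%). Their share of all DHSs was higher in the middle 20% than in the outer 40% in 5 of 5 chromosomes, most on chromosome 3 with 6.97% and 4.63%, and least on chromosome 4 with 4.32% and 4.20%. Per Mb, broad DHSs were sparser in the middle than in the outer parts in 3 of 5 chromosomes, with the exceptions of chromosome 3 (7.59 and 6.30) and chromosome 5 (9.45 and 6.30). The position of the centromeres was not used here.

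**Figure D5:**
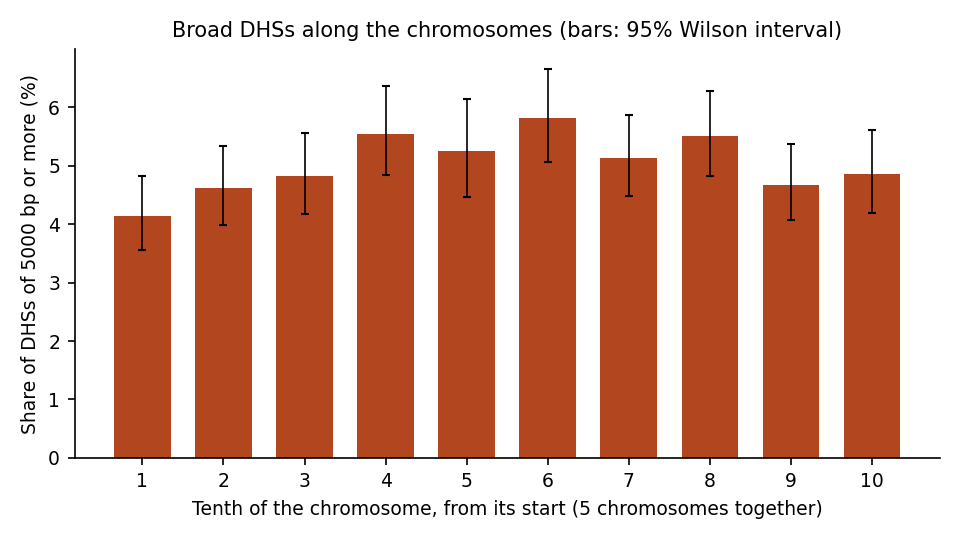
Share of all DHSs that are broad, in percent (y axis), in 10 equal segments of the chromosome from its start (x axis), pooled over the 5 chromosomes, with 95% Wilson intervals. The share is lowest in the first segment, at 4.14%, and highest in the sixth, at 5.82%, and most intervals overlap.

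Another DHS lay within 1000 bp of 51.8% of broad DHSs (49.5% to 54.1%), against 43.9% of DHSs of ordinary width (43.1% to 44.8%). The difference of 7.87 percentage points was positive in 4 of 5 chromosomes and went the other way on chromosome 5, with 42.3% of broad DHSs and 43.8% of those of ordinary width. Against DHSs of 2000 to 3000 bp, of which 48.0% had such a neighbor, it was 3.82 percentage points. The median distance to the nearest other DHS was 934 bp for broad DHSs and 1234 bp for DHSs of ordinary width. Over a longer range, the median number of other DHSs within 50 kb was 14 for broad DHSs and 15 for those of ordinary width. Of broad DHSs, 34 pairs followed each other within 1000 bp. Broad DHSs made up 5.02% of the DHSs on these chromosomes, and the number of pairs this share would give was not calculated.

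Density and fold enrichment changed stepwise with width, and the change did not begin at 5000 bp. Over DHSs of under 500, 500 to 1000, 1000 to 2000, 2000 to 3000, 3000 to 4000, and 4000 to 5000 bp, DGFs per kb were 3.46, 3.11, 2.86, 2.69, 2.63, and 2.59. They were 2.57 from 5000 to 6000 bp, 2.50 from 6000 to 8000 bp, 2.44 from 8000 to 10000 bp, and 2.38 from 10000 bp on. Median fold enrichment rose over the same classes, at 2.11, 2.23, 2.36, 2.46, 2.55, and 2.68, and then 2.83, 2.95, 3.10, and 3.24. Density within 500 bp of the summit was 3.47 per kb under 500 bp, 3.25 from 500 to 1000 bp, and 5.11 in the 72 DHSs of 10000 bp or more. It thus did not rise from the first class to the second. Of these 72 DHSs, 97.2% held a free stretch of 1000 bp or more. The share of summits in the middle part was 35.5% from 2000 to 3000 bp and 30.8% from 5000 to 6000 bp. It did not fall in step above that, with 35.8% in the 187 DHSs of 8000 to 10000 bp and 27.8% in the 72 of 10000 bp or more.

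DHSs of 5000 bp or more were also listed for the other species, on numbered chromosomes. Among whole-leaf DHSs, 2606 of *Z. mays* were this broad, or 5.99%. The numbers were 1007 for *S. bicolor*, or 2.63%, and 114 for *S. italica*, or 0.285%. In isolated strands of the bundle sheath, which surrounds the veins, the shares for these species were 5.77% (2800), 3.62% (1221), and 1.73% (675) in the same order. Peak widths depend on depth and peak calling in each species, which could not be compared here. *B. distachyon* also differed from the other species in age, harvest time, growth conditions, and isolation of nuclei. What part these have in the shares was not tested. The ratio of DGFs per kb in broad DHSs to that in DHSs of 1000 to 2000 bp was below 1 in 5 of the 7 lists, from 0.83 in *S. bicolor* whole leaf to 0.91 in *S. italica* bundle sheath, with 0.88 in *B. distachyon*. The exceptions were both lists of *Z. mays*, at 1.05 for whole leaf and 1.18 for bundle sheath. In 7 of 7 lists broad DHSs had the higher median fold enrichment and a smaller share of summits in the middle part of the DHS. The difference in summits was smallest in *S. italica* whole leaf, with 36.8% of only 114 broad DHSs against 42.9%, and no interval was calculated for it.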

How the data were processed

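DNaseI-seq data of 2 *B. distachyon* whole-leaf samples were analysed from the authors' processed lists, with 6 further DHS lists for comparison. The authors mapped reads with bowtie2, filtered them by mapping quality with samtools, called DHSs with MACS2 on pooled replicates, set the final number by the irreproducible discovery rate, and called DGFs with Wellington inside DHSs. Versions are not given in the sources used here. Each deposited DHS carries a whole-number score, a ratio of enrichment over background, a −log10 p-value and q-value, and its summit, and each deposited DGF carries a Wellington score. The authors describe a filter of DGFs by naked DNA. The deposited list does not show whether this filter had been applied, so DGF numbers and densities may include footprints that it would remove. The lists hold no depth, and no columns of other samples were left out (0).

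DGFs were assigned to the DHS they overlap by at least 1 bp. Distances to the summit were taken from the DGF midpoint, and chromosome length was the largest listed position. DHSs described singly are the 10 widest, the widest per chromosome, the 5 with most DGFs, the 5 highest and lowest in DGFs per kb and in fold enrichment, and the 3 on each side of 5000 bp. The members, measures, and comparison class were chosen with earlier results of these data known. Interval code was tested on 2000 simulated DHSs, all of which it measured correctly, and DGF numbers of 36286 of 36286 DHSs equalled those of BEDTools 2.31.1. Calculations ran in Python 3.11.15 with pandas 2.3.3 and NumPy 2.4.6, intervals used SciPy 1.17.1, and plots used matplotlib 3.10.9. Alternatives covered the width limit, the comparison class, stricter DHSs and DGFs, overlap, DHS ends, windows, and chromosomes. Groups split at quartiles of fold enrichment and the comparison of spacings with room beyond the DGF were added after seeing the data. No test was made, as replicates were combined before deposit. Deproteinized DNA samples and lists of enriched DGFs were not used here.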

Additional observations from a re-analysis of the deposited data

How the results depend on the processing

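No paired analysis was possible because the replicates were combined before deposit, and no replicate could be left out for the same reason. No result changed direction under any alternative run, and values that moved by more than the SD over the 5 chromosomes are given here, as ratios or percentage-point differences of broad DHSs to DHSs of 1000 to 2000 bp. With broad DHSs taken from 4000 bp (3364 DHSs) the ratios were 0.89 for DGFs per kb, 1.25 within 500 bp of the summit, 1.29 for median spacing, and 1.19 for median fold enrichment, and the differences −18.3 for the longest free stretch and −3.73 for the outer 40%. From 6000 bp (949 DHSs) they were 0.86, 1.33, 1.33, and 1.28, and −21.3 for the free stretch. Against DHSs of 2000 to 3000 bp they were 0.93, 1.21, 1.12, and 1.19, −4.55 for the summit in the middle part and −12.5 for the free stretch, and against 1000 to 1500 bp 0.86, 1.34, and 1.39 for the first 3, −18.6, and −21.8. Among DHSs at or above the median fold enrichment they were 0.89 for DGFs per kb, 1.36 for spacing, 1.12 for fold enrichment, −18.8 for the summit, −20.9 for the free stretch, and −1.85 for the outer 40%. With DGFs at the median score or stronger they were 1.43 within 500 bp of the summit, 1.58 for spacing, and −21.9 for the free stretch. With 200 bp at each end left out they were 0.81 for DGFs per kb, 1.26 within 500 bp of the summit, 1.41 for spacing, and −24.4 for the free stretch. Within 1000 bp of the summit the density ratio was 1.22, and for the outer 20% of chromosomes the difference was −2.17. From the lowest to the highest of 4 groups split at quartiles of fold enrichment, chosen after seeing the data, DGFs per kb gave 0.90, 0.92, 0.92, and 0.90, density within 500 bp of the summit 1.11, 1.09, 1.17, and 1.36, and the free stretch −21.2, −21.6, and −21.9 in the upper 3 groups. The other 84 of 134 values, those without 1 chromosome included, moved by less than this SD or, for numbers of DHSs, by less than 1.5 times. Among these, the difference in DHSs with a neighbor within 1000 bp, whose SD over chromosomes is 4.98 points, was 3.82 against DHSs of 2000 to 3000 bp. Depth is not given in the lists, and its part in width, fold enrichment, and DGF number was not tested.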
